A study of Mus musculus with 9 samples.

Results

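The histone cluster genes are the protein-coding genes whose GENCODE mouse M21 symbols start with Hist1h, Hist2h, Hist3h or Hist4h. The rule found 67 of the 55487 genes listed in each file, namely 6 of type H1, 18 of type H2A, 18 of type H2B, 12 of type H3 and 13 of type H4, while 3 pseudogenes with such symbols (Hist1h2aj, Hist1h2al and Hist3h2bb-ps) were not counted. The study sequenced polyA RNA from lymph node T cells labelled as naive CD4+, with 3 libraries in each of 3 groups. The groups were cells kept 20 h in culture with 10 ng/mL of recombinant IL-1b (a cytokine of the innate immune response), cells kept 20 h in culture without it, and freshly prepared cells. All 9 libraries came from WT mice of the strain C57BL6/J, no age or sorting scheme was given, and the labels do not say whether replicates came from separate mice. The p-values therefore measure the spread between these libraries, which may be technical.

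Histones H2A, H2B, H3 and H4 form the core around which DNA is wrapped in a nucleosome, and H1 binds the DNA between nucleosomes. Most histone cluster genes are replication-dependent: they have no introns, they are transcribed mainly in S phase, and their mRNAs end in a conserved stem-loop instead of a poly(A) tail. The stem-loop is bound by SLBP, and a cut just after it makes the mature end. Some of these genes are also known to give longer, polyadenylated transcripts, mainly in cells that have stopped dividing, and a library made from poly(A) RNA favours those. The separate, replication-independent histone genes (such as H2afz and H3f3a) carry poly(A) tails and are transcribed throughout the cell cycle.

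Library totals ran from 13518814 to 23056686 expected counts, and the cluster genes took 0.00705% ± 0.000185 of them in IL-1b-treated cells, 0.00580% ± 0.000449 in cells cultured without IL-1b and 0.0110% ± 0.000228 in fresh cells (SD, n = 3 each). A CD4 T cell marker list summed to between 7610 and 7671 CPM in IL-1b-treated cells, 6925 to 6947 CPM in cultured cells and 6900 to 6981 CPM in fresh cells, and all 11 of its genes passed the filter on low counts. CPM are counts relative to library size after scaling by the trimmed mean of M-values (TMM). Markers of other cells were present too, and all 10 B cell markers passed the test as lower in both cultures than in fresh cells. The B cell list summed to 206 to 225 CPM in IL-1b-treated cells, 190 to 199 CPM in cultured cells and 426 to 482 CPM in fresh cells, most of it Ighm. The other B cell genes were nearer to 0, and Ms4a1, which encodes CD20, had 0.240, 1.51 and 0.335 CPM in IL-1b-treated cells, 0.521, 0.557 and 0.498 CPM in cultured cells, and 7.44, 9.43 and 9.92 CPM in fresh cells. NK cell markers summed to 14.6 to 18.1, 14.3 to 18.4 and 64.4 to 69.8 CPM in IL-1b-treated, cultured and fresh cells, and neutrophil markers to 0 to 0.502, 0.124 to 0.373 and 5.29 to 13.2 CPM. Erythroid markers summed to 0.201 to 0.540, 0.187 to 0.742 and 1.90 to 9.09 CPM in the same order of groups. CD8 markers went the other way, at 56.4 to 63.5, 47.7 to 59.6 and 23.0 to 26.4 CPM. So did the stromal list, nearly all Pecam1, at 380 to 396, 383 to 388 and 276 to 290 CPM, with Col3a1 and Pdgfrb at 0 in all 9 libraries. Myeloid markers summed to 55.9 to 64.3, 41.7 to 43.8 and 43.8 to 50.9 CPM, in the cultures mostly Cst3. Of 8 tested myeloid genes, 6 were lower and 1, Cst3, higher in each culture than in fresh cells. The B cell, NK cell, neutrophil and erythroid sums were thus lower in both cultures than in fresh cells, as the cluster sum was. The part of any list in that difference was not tested.

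The genes lie in 4 places of the mm10 genome: 54 on chromosome 13 (chr13:21715763-23934851), 10 on chromosome 3 (chr3:96219865-96270132), 2 on chromosome 11 (chr11:58948920-58956830) and 1 on chromosome 6. The pattern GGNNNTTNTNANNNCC, with its outer bases pairing as a stem around the inner loop, was searched along the gene's strand in the first 100 bases after the stop codon of the GENCODE M21 transcripts. It was found in 46 of the 52 members with at least 16 bases annotated there (88.5%), against 4 of 20929 other protein-coding genes (0.0191%; 50 of all 20981 such genes, 0.238%). The stem-loops of 5 members that the results turn on are shown because the first 3 carry the same 16 bases, the last 2 carry other forms, and they differ in the bases around the stem-loop. The 16 bases of the stem-loop are in capitals, and the sequences are read along the gene.
Hist1h2ap: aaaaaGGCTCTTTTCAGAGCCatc
Hist3h2a: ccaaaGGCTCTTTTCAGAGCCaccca
Hist1h1c: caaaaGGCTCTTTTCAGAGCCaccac
Hist1h4n: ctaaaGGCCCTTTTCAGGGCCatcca
Hist2h2ac: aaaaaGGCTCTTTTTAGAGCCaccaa
These lie at chr13:21833029-21833044 (minus strand), chr11:58955172-58955187 (plus), chr13:23739512-23739527 (plus), chr13:21831798-21831813 (minus) and chr3:96220418-96220433 (minus). The first form, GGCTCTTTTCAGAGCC, was carried by 26 members and the Hist1h4n form, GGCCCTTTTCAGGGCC, by 7.

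Members differed in how far their annotated 3′ end runs past this element. In 23 members the transcript went on for 108 to 4884 bases beyond the stem-loop, for example 1643 bases in Hist3h2a and 840 bases in Hist1h1c, and in another 23 it ended 3 to 74 bases after it, as in Hist1h2ap (3 bases) and Hist1h4n (31 bases). In 17 members the annotation stopped near the stop codon, and 4 members (Hist2h2be, Hist1h2bc, Hist1h2bq and Hist1h2br) had a long 3′ end in which no stem-loop was found. The members also share sequence to very different degrees. No stretch of 50 bases of Hist2h2be and 8.54% of those of Hist1h1c occurred in another gene's transcript, against 31.5% for Hist3h2a, 93.1% for Hist1h2ap, 85.6% for Hist1h4n and 100% for Hist2h2aa2. Values of the last kind depend on how RSEM, the authors' counting tool, divided shared reads, so sums over members are given beside them.

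Upstream sequence was available from RefSeq (GRCm38.p6) for 61 of the 67 members. Within 250 bases before to 50 bases after the start, the octamer ATTTGCAT was present on either strand in 14 of 61 members (23.0%) and in 1.97% of all 27025 genes of the table. All 14 were H2A or H2B genes, 7 of 17 and 7 of 16. CCAAT was present in 52 of 61 (85.2%, against 41.1% of all genes) and in only 3 of 12 H4 genes, and TATAAA in 35 of 61 (57.4%, against 15.7%). The 150 bases upstream of the start are shown for an H2A gene that was higher with IL-1b and for an H1 and an H4 gene that were lower in both cultures than in fresh cells, with these motifs in capitals (on the other strand they read ATGCAAAT, ATTGG and TTTATA).
Hist3h2a: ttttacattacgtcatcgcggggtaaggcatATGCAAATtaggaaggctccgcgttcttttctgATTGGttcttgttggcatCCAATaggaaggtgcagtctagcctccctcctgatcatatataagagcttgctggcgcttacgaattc
Hist1h1c: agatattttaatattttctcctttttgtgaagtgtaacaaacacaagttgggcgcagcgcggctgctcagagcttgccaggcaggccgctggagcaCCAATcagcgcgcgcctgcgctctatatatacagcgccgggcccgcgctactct
Hist1h4n: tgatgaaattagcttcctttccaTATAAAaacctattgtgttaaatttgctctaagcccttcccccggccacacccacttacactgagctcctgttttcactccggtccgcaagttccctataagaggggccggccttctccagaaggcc
They span chr11:58954535-58954684 (plus strand), chr13:23738657-23738806 (plus) and chr13:21832198-21832347 (minus). A match is a description of these letters and not of a bound site.

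Summed over all 67 members, histone cluster RNA was highest in fresh cells, lowest in cells cultured without IL-1b, and in between with IL-1b. The sum was 77.4, 75.1 and 73.3 CPM in the IL-1b-treated libraries, 58.4, 52.3 and 60.9 CPM in the cultured libraries, and 106.1, 106.1 and 102.5 CPM in the fresh libraries. The ranges of the 3 groups did not overlap. With edgeR's quasi-likelihood test, adjusted over all genes by Benjamini-Hochberg, the sum was higher in IL-1b-treated than in cultured cells (log2 fold change 0.40 ± 0.060 SE, 1.32-fold, adjusted p = 2.35e-05). It was lower in cultured than in fresh cells (-0.88 ± 0.059, adjusted p = 1.14e-11) and in IL-1b-treated than in fresh cells (-0.48 ± 0.057, adjusted p = 1.38e-07). The comparisons share groups, so they are not independent of each other.

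The sizes depended on the scale. TPM, which divides by transcript length and so gives short genes more weight, summed to 114, 112.5 and 106.6 in IL-1b-treated cells, 100.7, 92.05 and 100.7 in cultured cells, and 308, 297 and 305 in fresh cells. On the log2(TPM + 1) scale the differences became 0.18, -1.62 and -1.44 in the same order of comparisons, with the same signs and all past the threshold. That scale also moved the median log2 fold change of all genes by -0.25, -0.20 and -0.44, and scaling by library size alone moved it by -0.12, -0.053 and -0.17. Hist1h2ap weighed heavily in TPM: without it the other 66 members summed to 77.8, 74.6 and 71.6 TPM in IL-1b-treated cells, 82.2, 71.3 and 82.4 TPM in cultured cells, and 283, 265 and 288 TPM in fresh cells. The cultures then overlapped in TPM, while in CPM the same 66 members stayed apart at 64.5 to 68.4 CPM with IL-1b, 48.1 to 57.3 CPM in cultured cells and 99.98 to 102 CPM in fresh cells. In bulk RNA, fewer cells of a type and less RNA per cell cannot be told apart.

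**Figure D1:**
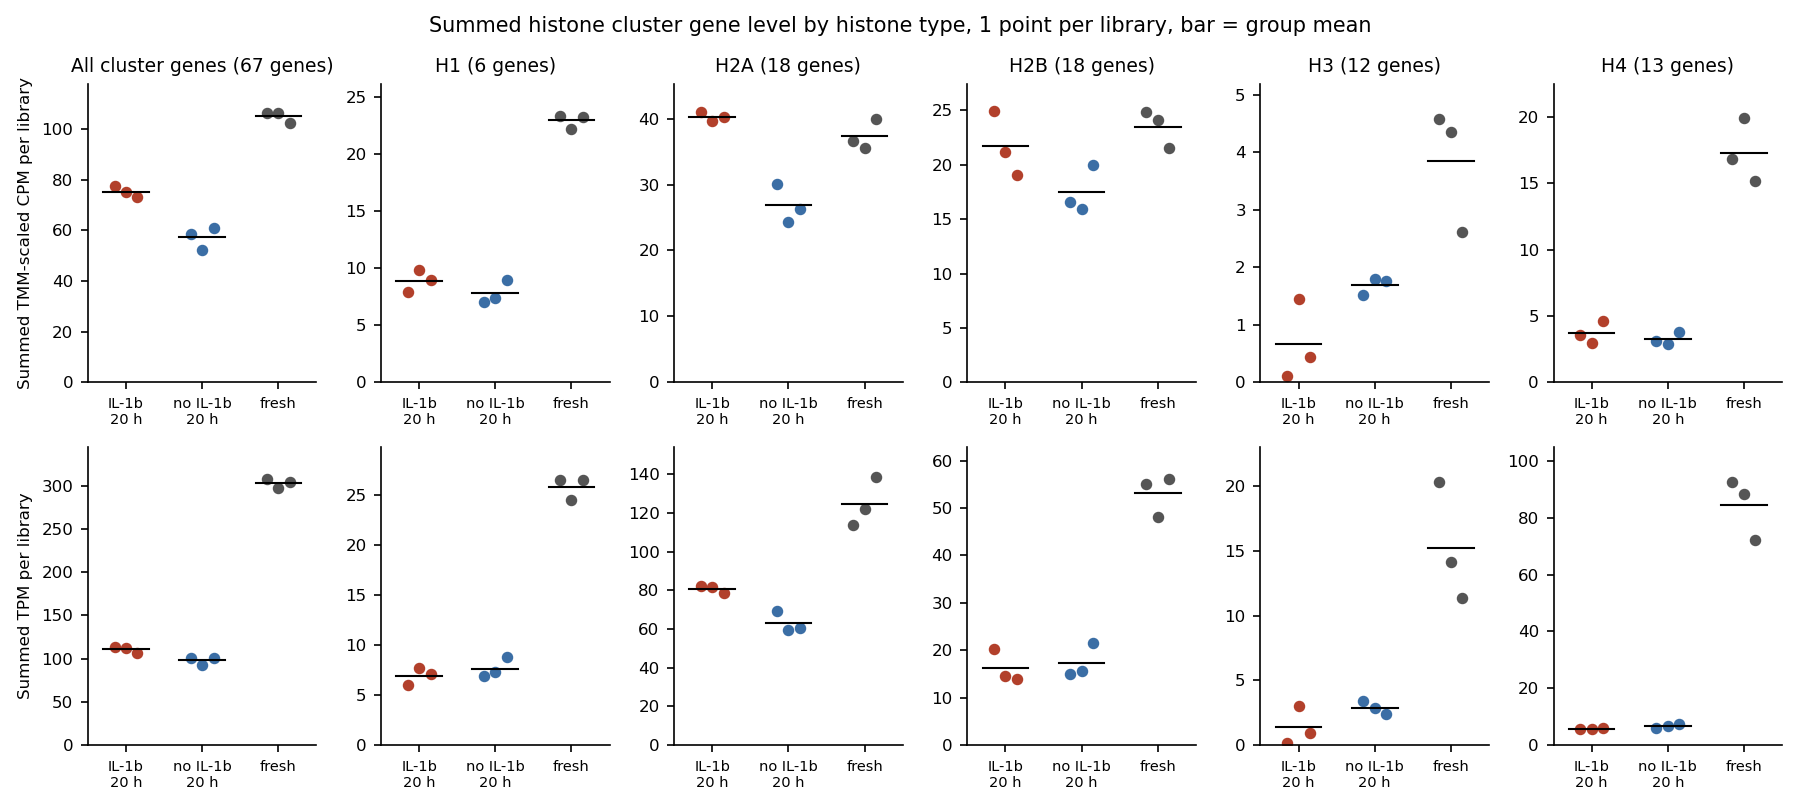
Summed level of the histone cluster genes in each library, over all members and by histone type, in TMM-scaled CPM (top row) and TPM (bottom row). Points are libraries and bars are group means; each group has 3 libraries. The sum over all members lies at 73.3 to 77.4 CPM with IL-1b, 52.3 to 60.9 CPM without IL-1b and 102.5 to 106.1 CPM in fresh cells, and the H1 and H4 sums of both cultures lie far below those of fresh cells.

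The types differed in size of change, although differences between types were not tested. H4, H3 and H1 sums were lower in both cultures than in fresh cells, with H3 at few counts, while H2A sums rose with IL-1b against culture without it. H2A and H2B sums with IL-1b lay near the fresh values in CPM and well below them in TPM. H2A genes made up 53.5% of the members' counts in IL-1b-treated cells, 47.1% in cultured cells and 35.6% in fresh cells. H4 genes made up 4.92%, 5.73% and 16.5% in the same order. Much of the counts came from long transcripts, since Hist1h1c, Hist2h2be and Hist3h2a together held 60.7% in IL-1b-treated cells, 61.5% in cultured cells and 41.9% in fresh cells.

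The linker histone H1 genes summed to 7.88, 9.79 and 8.97 CPM in IL-1b-treated cells, 7.03, 7.40 and 8.95 CPM in cultured cells, and 23.3, 22.2 and 23.2 CPM in fresh cells. Both cultures lay far below the fresh libraries and overlapped each other. The H1 sum fell in cultured against fresh cells (log2 fold change -1.55 ± 0.13, adjusted p = 6.14e-10) and in IL-1b-treated against fresh cells (-1.37 ± 0.13, adjusted p = 2.78e-09). Between the cultures it did not pass the test (0.18 ± 0.14, adjusted p = 0.379). Hist1h1c (ENSMUSG00000036181, chr13:23738808-23740367), which encodes H1.2, carried most of this type. It had 7.51, 9.54 and 8.71 CPM in IL-1b-treated cells, 6.45, 7.23 and 8.71 CPM in cultured cells, and 17.5, 17.2 and 17.9 CPM in fresh cells. The fresh values were close together and above every value from culture. The edgeR fold was -1.23 ± 0.14 in cultured against fresh cells (adjusted p = 1.16e-07) and -1.03 ± 0.14 with IL-1b against fresh cells (adjusted p = 9.94e-07).

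Hist1h1e (chr13:23620629-23622558), which encodes H1.4 and was past the filter in fresh cells alone, was at under 1 CPM in both cultures, with 0.0714, 0.249 and 0.253 CPM in IL-1b-treated cells, 0.586, 0.160 and 0.236 CPM in cultured cells, and 3.65, 3.02 and 2.76 CPM in fresh cells. Neither culture reached the fresh range, and edgeR gave -3.19 ± 0.54 in cultured against fresh cells (adjusted p = 2.42e-05) and -4.09 ± 0.60 with IL-1b against fresh cells (adjusted p = 2.44e-06). Hist1h1e entered the test through the group where it is high, so these p-values are not read as evidence. Its annotation overlaps Hist1h2be on the same strand, so reads of these genes may have been divided between them. Hist1h1d, which encodes H1.3, was at 0 in all cultured libraries, had 0.300, 0 and 0 CPM with IL-1b, and had 1.36, 1.60 and 1.76 CPM in fresh cells. Set against a floor of 3 counts over the group, it was at least 24.4-fold lower in cultured than in fresh cells. Hist1h1d was also past the filter in fresh cells alone, so that bound is not read as evidence. Hist1h1a had 0 counts in all 6 libraries from culture and 20, 6 and 12 counts in the fresh libraries, and Hist1h1b and the testis form Hist1h1t were at 0 in all 9.

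H2A was the type whose sum passed the test between the cultures. H2A genes summed to 41.0, 39.7 and 40.2 CPM in IL-1b-treated cells, 30.1, 24.3 and 26.4 CPM in cultured cells, and 36.6, 35.6 and 39.9 CPM in fresh cells. The IL-1b libraries lay above every cultured library and reached into the fresh range. The sum rose with IL-1b against culture without it (0.58 ± 0.088, 1.499-fold, adjusted p = 2.40e-05) and was lower in cultured than in fresh cells (-0.47 ± 0.088, adjusted p = 7.68e-05). Against fresh cells the IL-1b value did not pass the test in CPM (0.11 ± 0.086, adjusted p = 0.262), and on the log2(TPM + 1) scale it was negative and passed (-0.62, adjusted p = 8.89e-05), so no direction is given for that pair.

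Hist1h2ap (ENSMUSG00000094777, chr13:21833026-21833507, minus strand) and Hist3h2a, given below, each accounted for much of the H2A rise with IL-1b against culture in CPM. Means with and without IL-1b were 40.3 and 26.9 CPM for the H2A sum, 9.11 and 3.80 CPM for Hist1h2ap, and 20.8 and 15.1 CPM for Hist3h2a. Hist1h2ap had 9.005, 9.54 and 8.78 CPM in IL-1b-treated cells, 3.58, 4.20 and 3.61 CPM in cultured cells, and 4.14, 5.13 and 2.55 CPM in fresh cells. All IL-1b libraries were above all others, while the cultured values fell inside the fresh range. The edgeR fold was 1.26 ± 0.23 with IL-1b against culture without it (2.39-fold, adjusted p = 0.000165) and 1.20 ± 0.22 with IL-1b against fresh cells (adjusted p = 5.41e-05), and cultured against fresh cells gave -0.06 ± 0.23 (adjusted p = 0.849). The rise with IL-1b against culture passed the test under every alternative fit (adjusted p up to 0.00649) and without each of the 9 libraries in turn (adjusted p up to 0.00178). Because 93.1% of its 50-base stretches occur in other transcripts, a share of its reads may belong to other H2A genes. Without it, the other 17 H2A genes summed to 31.99, 30.2 and 31.4 CPM in IL-1b-treated cells, 26.5, 20.1 and 22.7 CPM in cultured cells, and 32.4, 30.5 and 37.4 CPM in fresh cells, so the IL-1b and cultured ranges stayed apart. In TPM those 17 genes had 45.9, 43.7 and 43.9 in IL-1b-treated cells, 51.1, 38.9 and 42.4 in cultured cells, and 88.5, 89.6 and 122.4 in fresh cells, and there the cultures overlapped.

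Hist3h2a (ENSMUSG00000078851, chr11:58954685-58956830), the member with the most counts over all libraries, had 21.4, 19.3 and 21.8 CPM in IL-1b-treated cells, 17.5, 12.5 and 15.3 CPM in cultured cells, and 16.3, 15.1 and 17.1 CPM in fresh cells. Each IL-1b library was above all 6 others. The rise passed the test against culture without IL-1b (0.46 ± 0.12, adjusted p = 0.00603), and on the log2(TPM + 1) scale it was 0.14 and did not pass. Against fresh cells the edgeR fold was 0.37 ± 0.12 (adjusted p = 0.0106), it was lost without the second fresh library (adjusted p = 0.0502), and on the log2(TPM + 1) scale it turned to -0.18 (adjusted p = 0.245), so no direction is given for that pair. Its annotation overlaps Trim17 on the same strand, a gene with 14.5, 32.8 and 50.8 counts in IL-1b-treated cells, 24.5, 39.8 and 57.8 in cultured cells, and 22.7, 39.9 and 8.04 in fresh cells.

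Hist2h2aa1 and Hist2h2aa2 lie next to each other on chromosome 3 (chr3:96245497-96246082 and chr3:96239749-96240276) and share nearly all their letters, so their separate values depend on how RSEM split the reads. Summed, they had 10.2, 10.1 and 9.16 CPM in IL-1b-treated cells, 8.64, 7.22 and 7.43 CPM in cultured cells, and 10.8, 11.4 and 15.7 CPM in fresh cells. The 3 ranges did not overlap in CPM. In TPM the cultures overlapped, at 33.5, 31.4 and 30.8 with IL-1b and 37.6, 29.4 and 31.8 in cultured cells. Fresh cells had 54.2, 58.6 and 80.6 TPM. Hist2h2aa1, like Hist2h3c1, also overlaps Gm20634 on the same strand, so the pair's sum may still depend on how reads were divided with that gene. Gm20634 had 76.68, 63.48 and 52.11 counts with IL-1b, 58.54, 35.53 and 34.34 in cultured cells, and 126.86, 83.85 and 75.45 in fresh cells. Taken alone, Hist2h2aa1 had 2.88, 5.04 and 0.756 CPM with IL-1b, 0.537, 1.68 and 0.394 CPM in cultured cells, and 1.40, 2.17 and 4.49 CPM in fresh cells. This is a wide spread within each group, and its edgeR call with IL-1b against culture (1.73 ± 0.61, adjusted p = 0.0348) was lost without IL-1b library 1 or 2 or without cultured library 1 or 3, with values of 1.084 to 2.67 as each library was left out. In DESeq2 and limma-voom it did not pass either, nor did the edgeR call in cultured against fresh cells (-1.62 ± 0.60, adjusted p = 0.0260), which was also lost without cultured library 1 or 3 or fresh library 3. Hist2h2aa2 had 7.35, 5.03 and 8.40 CPM with IL-1b, 8.11, 5.54 and 7.04 CPM in cultured cells, and 9.35, 9.21 and 11.2 CPM in fresh cells, with edgeR folds of -0.52 ± 0.19 in cultured against fresh cells (adjusted p = 0.0236) and -0.51 ± 0.19 with IL-1b against fresh cells (adjusted p = 0.0223). Both of those calls were lost when fresh library 3 was left out, the first also without cultured library 2 or 3 and the second also without IL-1b library 2.

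Hist2h2ac (chr3:96220361-96220880), whose stem-loop has its own form above, was rare outside fresh cells. It had 0, 0.143 and 0.0670 CPM in IL-1b-treated cells, 0.0651, 0.124 and 0 CPM in cultured cells, and 2.15, 0.890 and 0.844 CPM in fresh cells. Over the group that is 3 counts in each culture against 79 in fresh cells, a level 22.7 times as high in fresh as in cultured cells with a 95% counting interval of 7.48 to 112. The interval pools the libraries of a group and leaves out the spread between them (52, 15 and 12 counts in fresh cells). Hist2h2ac was past the filter in fresh cells alone, so the interval is not read as evidence. Among the H2A genes too low to test, Hist1h2ae had 4, 7 and 6 counts with IL-1b, 0, 1.38 and 0 counts in cultured cells, and 22.1, 7.89 and 14.1 counts in fresh cells.

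H2B genes summed to 24.9, 21.2 and 19.1 CPM in IL-1b-treated cells, 16.6, 15.9 and 20.0 CPM in cultured cells, and 24.8, 24.1 and 21.6 CPM in fresh cells. IL-1b-treated libraries overlapped both other groups. The sum was lower in cultured than in fresh cells (-0.43 ± 0.12, adjusted p = 0.00337), and the difference with IL-1b against culture fell just short of the threshold (0.31 ± 0.12, adjusted p = 0.0530). With IL-1b against fresh cells it was -0.11 ± 0.12 (adjusted p = 0.399) in the count fit and -1.66 (adjusted p = 1.14e-05) on the log2(TPM + 1) scale.

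Hist2h2be (ENSMUSG00000068854, chr3:96221119-96223738), a long transcript with no stem-loop found and no shared stretch, was the H2B gene with the most counts. It had 17.6, 16.9 and 14.4 CPM in IL-1b-treated cells, 12.7, 11.8 and 13.2 CPM in cultured cells, and 11.6, 10.2 and 9.07 CPM in fresh cells. The IL-1b libraries were above all others and the cultured libraries above all fresh ones. It rose with IL-1b against fresh cells (0.65 ± 0.13, adjusted p = 0.000137), and the difference between cultured and fresh cells did not pass (0.28 ± 0.13, adjusted p = 0.0772). The edgeR call with IL-1b against culture (0.37 ± 0.13, adjusted p = 0.0338) was lost without IL-1b library 1 or 2 and without any of the 3 cultured libraries, with an adjusted p up to 0.115. On the log2(TPM + 1) scale neither rise passed.

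Hist3h2ba, Hist1h2bc and Hist2h2bb were lower in both cultures than in fresh cells. Hist3h2ba (chr11:58948920-58949533) had 3.12, 1.87 and 2.01 CPM in IL-1b-treated cells, 1.63, 1.73 and 2.61 CPM in cultured cells, and 3.80, 4.39 and 4.22 CPM in fresh cells. All fresh libraries were above both cultures, and it fell in cultured against fresh cells (-1.05 ± 0.31, adjusted p = 0.00648), with -0.81 ± 0.31 for IL-1b against fresh cells (adjusted p = 0.0254, lost without IL-1b library 2 or 3 or fresh library 2 or 3). Hist1h2bc (chr13:23684199-23692908), which has 2 exons in the annotation used, had 1.11, 0.633 and 0.931 CPM with IL-1b, 1.04, 0.839 and 1.74 CPM in cultured cells, and 2.96, 3.82 and 3.73 CPM in fresh cells. It fell in both cultures against fresh cells (-1.51 ± 0.38, adjusted p = 0.00179 without IL-1b and -1.96 ± 0.40, adjusted p = 0.000172 with it). Hist2h2bb (chr3:96269752-96270132) was at 0 in all 6 libraries from culture and had 1.47, 0.632 and 1.43 CPM in fresh cells.

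Hist2h2bb and the H3 gene Hist2h3b overlap Gm20628, a gene on the opposite strand that had 0 counts in all IL-1b-treated libraries, 4.23, 0 and 5.56 counts in cultured cells, and 60.1, 29.8 and 30.9 counts in fresh cells. Whether the authors counted by strand is not given in the sources used here, so reads of these genes cannot be told apart.

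H3 was the type with the fewest counts, with sums of 0.107, 1.45 and 0.432 CPM in IL-1b-treated cells, 1.52, 1.80 and 1.76 CPM in cultured cells, and 4.58, 4.35 and 2.62 CPM in fresh cells. No range overlapped another, and the IL-1b libraries were widely spread. The sum was lower with IL-1b than in fresh cells (-2.60 ± 0.51, adjusted p = 1.07e-04), and the value was -3.88 without IL-1b library 2. In cultured against fresh cells the edgeR fold was -1.20 ± 0.45 (adjusted p = 0.0269), and this call was lost on leaving out any cultured library or fresh library 1 or 2. With IL-1b against culture the value of -1.40 ± 0.53 fell just short (adjusted p = 0.0531) and became -2.68 and passed without IL-1b library 2. Hist2h3b (chr3:96268654-96269141), past the filter on low counts in fresh cells alone, had 0, 0.201 and 0.164 CPM with IL-1b, 0, 0.190 and 0.177 CPM in cultured cells, and 1.62, 1.06 and 0.841 CPM in fresh cells, and it fell in cultured cells (-3.17 ± 0.81, adjusted p = 0.00194) and with IL-1b (-3.33 ± 0.84, adjusted p = 0.00136) against fresh cells. Hist2h3b entered the test through the group where it is high, so these p-values are not read as evidence. The near-identical Hist2h3c1 and Hist2h3c2 did not follow Hist2h3b. Summed, they had 0.107, 0.966 and 0.135 CPM in IL-1b-treated cells, 1.13, 1.49 and 1.58 CPM in cultured cells, and 0.728, 1.57 and 0.719 CPM in fresh cells, so the cultured libraries overlapped the fresh ones and lay above the IL-1b libraries.

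H4 was far lower after culture, with or without IL-1b. H4 genes summed to 3.54, 2.94 and 4.63 CPM in IL-1b-treated cells, 3.13, 2.91 and 3.79 CPM in cultured cells, and 16.8, 19.9 and 15.2 CPM in fresh cells. The cultures overlapped each other and stayed well below every fresh library. The sum fell in cultured against fresh cells (-2.40 ± 0.19, adjusted p = 1.68e-10) and in IL-1b-treated against fresh cells (-2.22 ± 0.18, adjusted p = 3.36e-10), and the cultures did not pass against each other (0.18 ± 0.21, adjusted p = 0.583). Hist1h4n (ENSMUSG00000069305, chr13:21831767-21832196, minus strand) and Hist1h4m share 85.6% and 89.8% of their 50-base stretches with other transcripts, and their counts were divided differently in fresh library 2. Hist1h4n was at 0 in all 6 libraries from culture and had 178, 28.2 and 65.0 counts in fresh cells, while Hist1h4m had 4, 3 and 0 counts with IL-1b, 0, 4 and 1 in cultured cells, and 0, 34.8 and 0 in fresh cells. Their sum was 178, 63 and 65 counts in the fresh libraries. In CPM the mean of the pair's sum was 0.0198 times the fresh mean in cultured cells and 0.0291 times in IL-1b-treated cells.

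Hist1h4i (chr13:22040636-22041362) had 0.961, 1.51 and 1.14 CPM in IL-1b-treated cells, 0.195, 0.618 and 0.747 CPM in cultured cells, and 1.57, 4.15 and 2.60 CPM in fresh cells. Its 3 ranges did not overlap. It fell in cultured against fresh cells (-2.38 ± 0.52, adjusted p = 0.000463). With IL-1b the value was -1.20 ± 0.48 against fresh cells (adjusted p = 0.0335), a call lost without IL-1b library 1 or 3 or fresh library 2 or 3, and 1.18 ± 0.55 against culture without IL-1b (adjusted p = 0.115). Hist1h4d (chr13:23581598-23582735), past the filter in fresh cells alone, had 0.660, 0.359 and 0.670 CPM with IL-1b, 1.17, 0.433 and 0.809 CPM in cultured cells, and 2.07, 3.38 and 2.18 CPM in fresh cells, and it fell in cultured cells (-1.65 ± 0.48, adjusted p = 0.00546) and with IL-1b (-2.15 ± 0.50, adjusted p = 0.000717) against fresh cells. Hist1h4c (chr13:23697635-23698454), also past it in fresh cells alone, had 0, 0 and 0.299 CPM with IL-1b, 0, 0.155 and 0.0672 CPM in cultured cells, and 0.789, 1.26 and 0.914 CPM in fresh cells, with falls of -3.80 ± 0.97 (adjusted p = 0.00178) and -3.36 ± 0.93 (adjusted p = 0.00296) in cultured and in IL-1b-treated against fresh cells (-7.04 without IL-1b library 3, when the remaining IL-1b libraries are at 0). Both Hist1h4d and Hist1h4c entered the test through the group where they are high, so their p-values are not read as evidence. Hist1h4b, too low to be tested, was at 0 in all 6 libraries from culture and had 34.5, 32.9 and 7.35 counts in fresh cells.

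**Figure D2:**
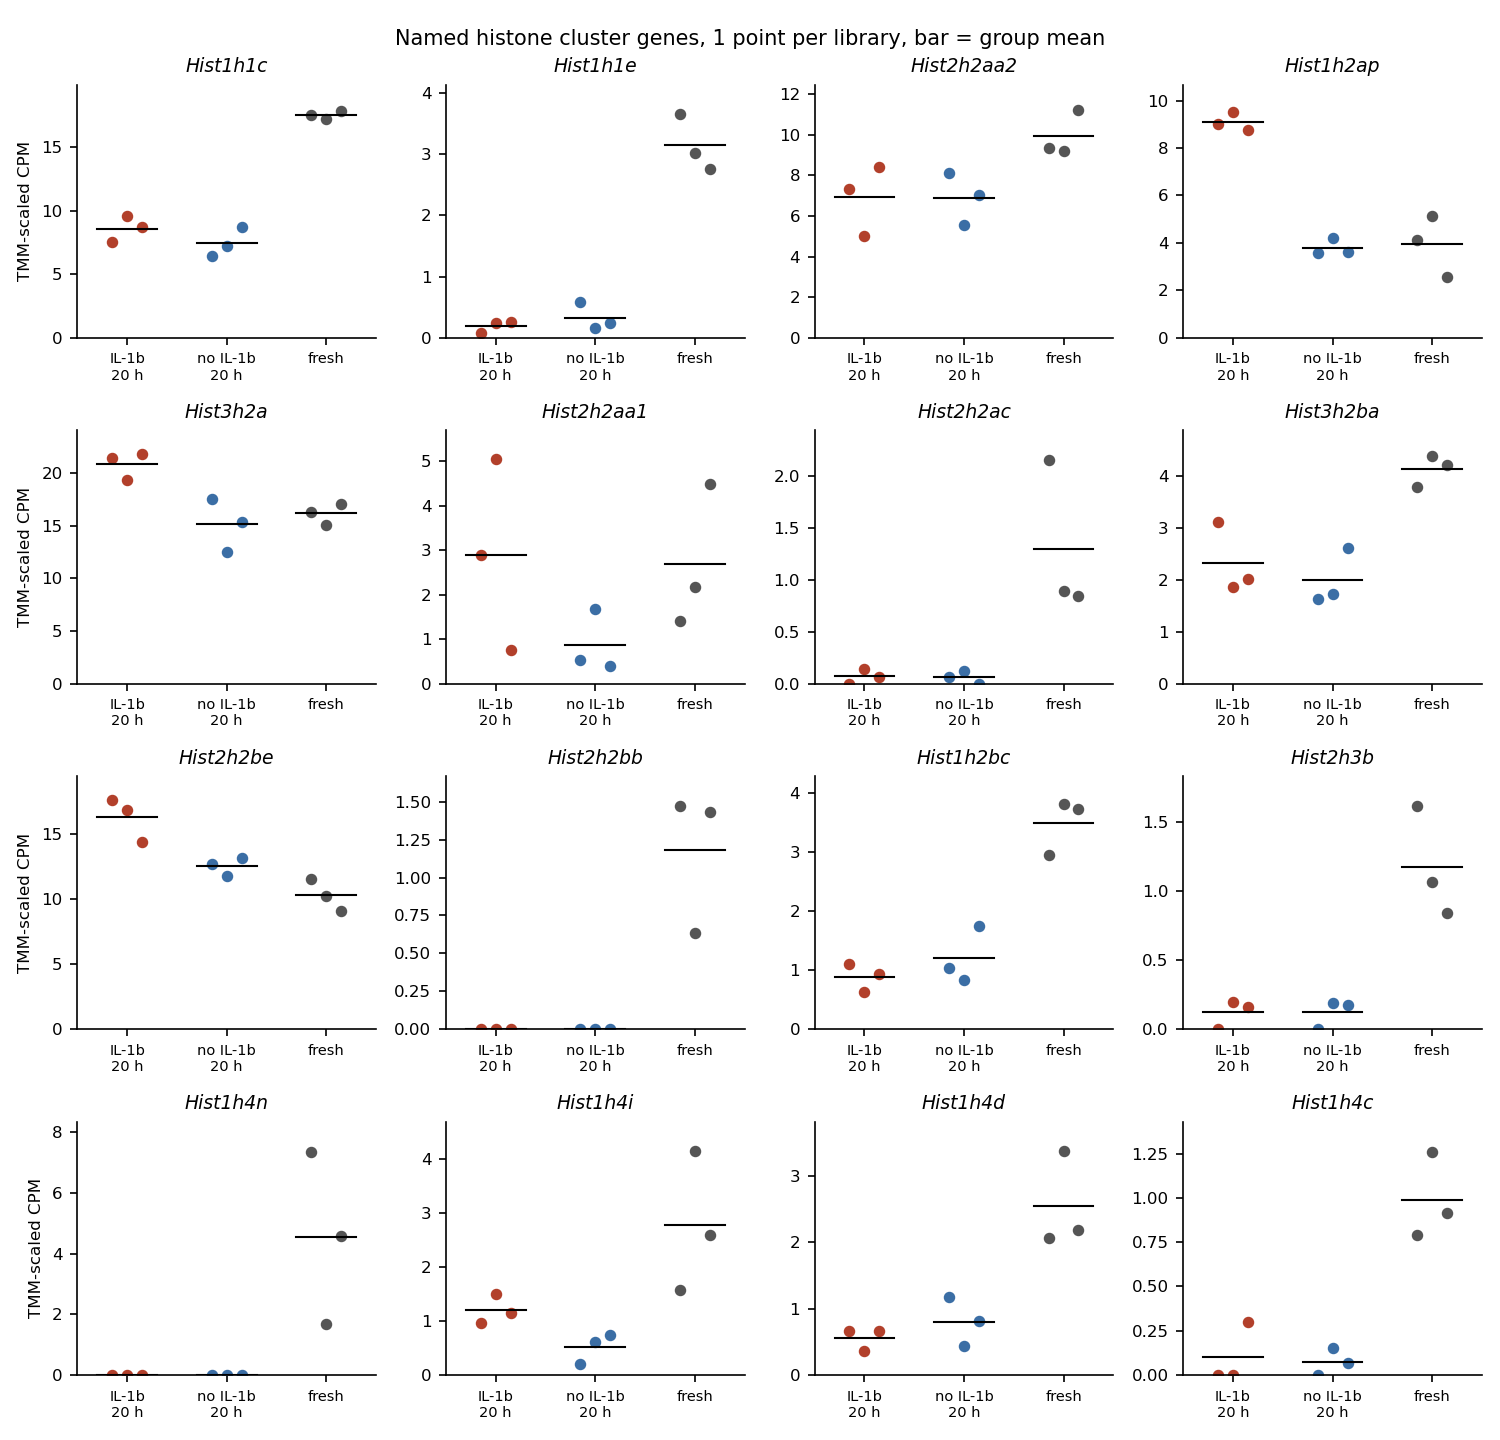
TMM-scaled CPM of the 16 named histone cluster genes in each library, ordered by histone type. Points are libraries and bars are group means, with 3 libraries a group. Hist1h2ap, Hist3h2a and Hist2h2be are highest with IL-1b, while Hist1h1c, Hist3h2ba, Hist1h2bc and the H4 genes are highest in fresh cells.

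Only 20 of the 67 members had enough counts to enter the test. Of these, 7 were past the filter in all 3 groups and 9 in fresh cells alone (Hist1h1d, Hist1h1e, Hist2h2ac, Hist2h2bb, Hist2h3b, Hist2h3c2, Hist1h4c, Hist1h4d and Hist1h4n). A gene that enters through the group where it is high is more likely to be called lower elsewhere, although Hist2h3c2 was called in no comparison. For that reason no total over the tested members is read as evidence. With IL-1b against culture, 4 members were called higher (Hist1h2ap, Hist2h2aa1, Hist2h2be and Hist3h2a) and 0 lower in edgeR, where 15.6% of all 13043 tested genes were called higher and 13.3% lower. At an unadjusted p under 0.05 these were 6 and 0, and DESeq2 and limma-voom each gave 3 and 0. Without cultured library 1 or 3 the higher calls became 2 (Hist1h2ap and Hist3h2a). In cultured against fresh cells, edgeR called 0 higher and 14 lower (29.4% and 28.9% of all tested genes), with 1 and 15 at an unadjusted p under 0.05 and 0 and 13 in both other tools. Hist2h3c1 added 1 call, lower with IL-1b against culture and higher in cultured against fresh cells, when any library but cultured 2 or 3 was left out. With IL-1b against fresh cells, 3 were called higher (Hist1h2ap, Hist2h2be and Hist3h2a) and 13 lower (32.9% and 32.6%).

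**Figure D3:**
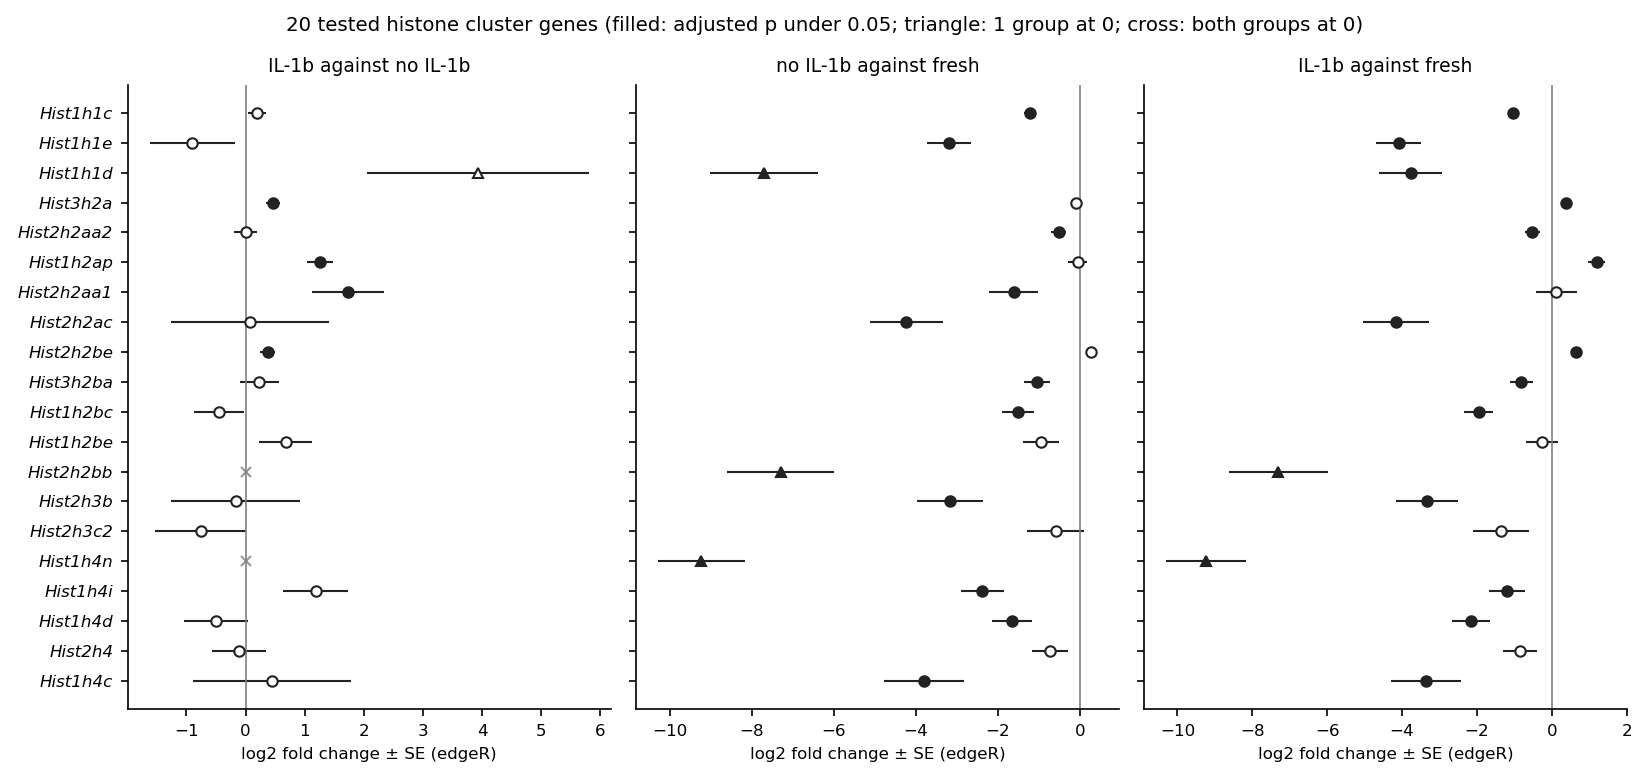
The log2 fold change (edgeR) of each of the 20 tested members in the 3 comparisons, with bars of 1 standard error. Filled symbols have an adjusted p under 0.05, triangles mark genes at 0 in 1 group, whose fitted value depends on the prior count, and crosses mark genes at 0 in both groups. With IL-1b against no IL-1b the 4 filled symbols are all above 0, and against fresh cells most filled symbols are below 0.

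The 47 untested members had 67.8 counts in all over the IL-1b-treated libraries, 102 over the cultured libraries and 674 over the fresh libraries. More members were seen at all in fresh cells: 22, 24 and 24 members were above 0 with IL-1b, 23, 27 and 23 in cultured cells, and 46, 45 and 44 in fresh cells. Drawing every library down to 13518813 counts left these numbers at 21.2, 23.8 and 23.2 with IL-1b, 22.6, 26.4 and 22.6 in cultured cells, and 44.5, 44.3 and 44.0 in fresh cells. At 0 in all 9 libraries were Hist1h1b, Hist1h1t, Hist1h2aa, Hist1h2af, Hist1h2ao, Hist2h2ab, Hist1h2ba, Hist1h2bn, Hist1h2br, Hist1h3b and Hist1h3c. For reads as RSEM assigned them, a count of 0 allows a limit of 3 counts, or 0.130 to 0.222 unscaled CPM by library. Counting error only is covered by that limit, and not the division of shared reads. The share of their sequence stretches that occurs in other genes' transcripts ran from 0% in Hist1h1b and Hist1h1t to 99.83% in Hist1h2br. It was 93.5% in Hist1h2ao and 86.45% in Hist1h2bn. Where that share is high, reads may have been given to another gene, so the limit does not bound the gene's RNA. In TPM, 30 of the 56 members above 0 somewhere had every cultured library below every fresh library and 0 the reverse, against 26.9% and 11% of all 23221 genes above 0. With IL-1b against fresh cells the numbers were 30 lower, Hist3h2a among them, and 1 higher (Hist1h2ap; 35.4% and 7.77% of all such genes), and with IL-1b against culture 3 were higher (Hist1h2ap, Hist1h4i and Hist1h2ae; 2.47%) and 1 lower (Hist1h4h; 27.4%). Of the 56 members, 55 were above 0 in some fresh library, 32 in some cultured library and 30 in some IL-1b-treated library. A member at 0 throughout a culture cannot be higher there than in fresh cells, so the counts against fresh cells are not read as evidence.

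When members were grouped by the annotated 3′ end, a grouping made after the values were known and therefore not tested, every class with a stem-loop or a short end was higher in fresh cells. Genes annotated 100 bases or more past the stem-loop summed to 39.1, 37.1 and 39.6 CPM in IL-1b-treated cells, 31.5, 27.4 and 34.0 CPM in cultured cells, and 56.9, 63.5 and 57.1 CPM in fresh cells. Those ending within 100 bases of the stem-loop summed to 19.7, 20.3 and 18.2 CPM with IL-1b, 12.9, 12.01 and 11.5 CPM in cultured cells, and 28.6, 25.0 and 27.5 CPM in fresh cells. In both classes the 3 CPM ranges were apart and in the same order. In TPM the cultures overlapped in the first of these classes, at 31.3 to 33.2 with IL-1b and 29.7 to 36.9 in cultured cells. The 17 genes whose annotation stops near the stop codon reached 0, 0.201 and 0.164 CPM with IL-1b, 0.195, 0.190 and 0.177 CPM in cultured cells, and 5.13, 3.50 and 5.07 CPM in fresh cells. The 4 genes with a long end and no stem-loop, mostly Hist2h2be, differed from this in CPM only. They had 18.7, 17.5 and 15.3 CPM with IL-1b, 13.7, 12.7 and 15.2 CPM in cultured cells, and 15.5, 14.1 and 12.9 CPM in fresh cells. In TPM they too were highest in fresh cells, at 13.9, 13.3 and 12.4. The IL-1b libraries had 9.04, 8.16 and 7.42 TPM and the cultured libraries 8.51, 7.80 and 9.98 TPM. Within this class, Hist1h2bc was highest in fresh cells in CPM as well, with means of 0.890, 1.21 and 3.50 CPM in IL-1b-treated, cultured and fresh cells.

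**Figure D4:**
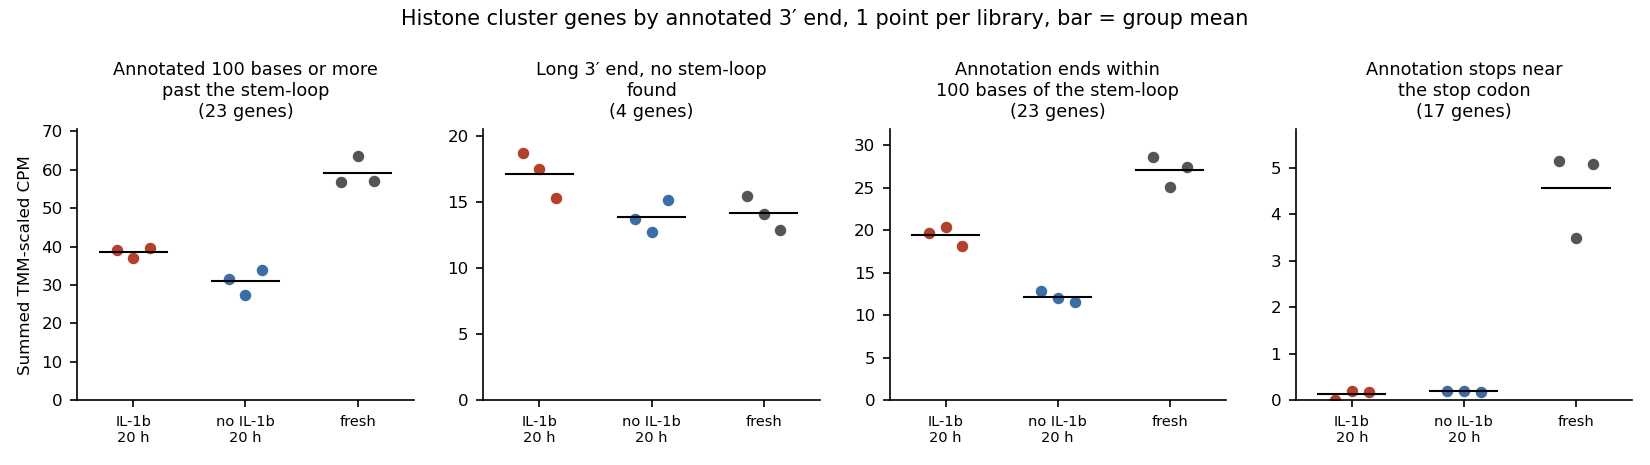
Summed TMM-scaled CPM of the histone cluster genes in each library, by how the annotated transcript ends. Points are libraries and bars are group means, with 3 libraries a group. The 17 genes annotated only to near the stop codon are at 0 to 0.201 CPM in both cultures and at 3.50 to 5.13 CPM in fresh cells. The 4 genes with a long end and no stem-loop, mostly Hist2h2be, overlap between the cultured and fresh groups in CPM but not in TPM.

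Related genes were read from lists of known genes. Of the genes listed as replication-independent histone genes, 10 of 13 were tested. In edgeR 4 rose and 0 fell with IL-1b against culture (6 and 1 at an unadjusted p under 0.05). In cultured against fresh cells 6 rose and 1 fell, and with IL-1b against fresh cells 8 rose and 1 fell. Their median log2 fold changes were 0.23, 0.41 and 0.49, beside -0.01, 0.00 and -0.01 for all genes tested. Their summed TPM overlapped between IL-1b-treated and cultured cells (2081 to 2157 and 2087 to 2099) and was 1884 to 1926 in fresh cells. H2afz, which encodes H2A.Z, had 237, 240 and 251 CPM in IL-1b-treated cells, 162, 168 and 156 CPM in cultured cells, and 93.5, 85.5 and 87.4 CPM in fresh cells. H3f3a, which encodes H3.3, had 593, 574 and 561 CPM with IL-1b, 444, 444 and 443 CPM in cultured cells, and 275, 290 and 292 CPM in fresh cells. Both rose in all 3 comparisons and so ran in the opposite direction to the cluster sum against fresh cells. The gene that fell was H2afx, which encodes H2A.X and is 1 of the 4 other genes with a stem-loop after the stop codon, with 13.9, 14.8 and 11.9 CPM with IL-1b, 13.5, 12.99 and 17.9 CPM in cultured cells, and 21.8, 22.1 and 21.9 CPM in fresh cells (cultured against fresh, -0.56 ± 0.12, adjusted p = 0.000486).

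Of 19 tested genes for making and degrading histone mRNA, 5 rose and 4 fell with IL-1b against culture, 6 rose and 3 fell in cultured against fresh cells, and 9 rose and 6 fell with IL-1b against fresh cells. Slbp, which encodes the stem-loop binding protein, had 88.6, 84.7 and 82.5 CPM in IL-1b-treated cells, 62.1, 64.2 and 57.3 CPM in cultured cells, and 32.8, 34.9 and 33.4 CPM in fresh cells, with no overlap, and it rose in all 3 comparisons (0.48 ± 0.062, 0.86 ± 0.066 and 1.34 ± 0.065). Srrt, Sympk and Upf1, which act in cap binding and 3′ end formation, in the cleavage complex and in decay, fell in both cultures against fresh cells; Upf1 averaged 93.5 ± 3.39 CPM with IL-1b, 117 ± 10.8 CPM in cultured cells and 201 ± 2.95 CPM in fresh cells (SD, n = 3 each). Of 22 histone chaperone genes, 6 rose and 5 fell, 8 rose and 9 fell, and 8 rose and 8 fell in the same order of comparisons. Nasp, a chaperone of H1 and of H3 with H4, averaged 130.4 ± 2.65 CPM with IL-1b, 97.9 ± 5.43 CPM in cultured cells and 58.7 ± 1.11 CPM in fresh cells. The other 3 chaperone genes with the smallest adjusted p fell in all 3 comparisons. Supt6, which encodes the histone chaperone SPT6 of transcribed genes, averaged 127 ± 3.05 CPM with IL-1b, 156 ± 3.18 CPM in cultured cells and 248.5 ± 6.75 CPM in fresh cells. Hjurp, the chaperone of the centromeric H3 variant CENP-A, averaged 122 ± 10.7, 139 ± 4.60 and 196 ± 2.59 CPM in the same order, and Cabin1, a subunit of the HIRA complex, averaged 94.6 ± 2.36, 120.1 ± 8.17 and 151 ± 6.30 CPM (SD, n = 3 each).

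Of 32 S phase and proliferation genes, 5 rose and 0 fell in edgeR with IL-1b against culture (5 and 3 at an unadjusted p under 0.05), 5 rose and 7 fell in cultured against fresh cells, and 7 rose and 6 fell with IL-1b against fresh cells, with medians of -0.02, 0.06 and 0.00. Summed, the list was at 868 to 877 CPM with IL-1b, 743 to 771 CPM in cultured cells and 675 to 686 CPM in fresh cells. Without Pcna and Mcm7, left out with earlier results of these data known, it was at 479.5 to 494 CPM with IL-1b, 472 to 484 CPM in cultured cells and 508 to 515 CPM in fresh cells. The place of fresh cells in the order thus depended on these genes, so no direction is given for the list. In TPM the sums overlapped, at 512 to 524 with IL-1b, 512 to 546 in cultured cells and 515 to 525 in fresh cells. Pcna, the sliding clamp of DNA polymerase, averaged 257 ± 17.0 CPM with IL-1b, 169 ± 3.14 CPM in cultured cells and 103 ± 2.75 CPM in fresh cells, and E2f2 averaged 9.58 ± 0.601, 10.8 ± 0.398 and 16.5 ± 1.12 CPM in the same order. Mki67, added after its values were seen because it marks dividing cells, averaged 4.74 ± 1.20, 6.68 ± 0.200 and 6.60 ± 1.36 CPM (SD, n = 3 each), and edgeR gave an adjusted p of 0.921 for cultured against fresh cells.

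Other RNAs without a poly(A) tail did not move like the cluster genes. Their 11 listed genes summed to 23.2, 24.5 and 19.6 CPM in IL-1b-treated cells, 134, 138 and 152 CPM in cultured cells, and 31.9, 23.2 and 23.3 CPM in fresh cells. The cultured libraries were well above both other groups, and of 6 tested genes edgeR called 5 higher and 0 lower in cultured against fresh cells (5 and 0 at an unadjusted p under 0.05), 0 higher and 5 lower with IL-1b against culture (0 and 6), and 0 higher and 1 lower, Scarna2, with IL-1b against fresh cells (0 and 1). Rn7sk, the 7SK RNA that holds back the elongation factor P-TEFb, had 6.004, 6.81 and 3.22 CPM with IL-1b, 21.9, 20.3 and 20.7 CPM in cultured cells, and 5.33, 5.87 and 3.94 CPM in fresh cells (cultured against fresh, 2.04 ± 0.19, adjusted p = 3.99e-09). The cluster sum was lowest in the group in which these RNAs were highest, and any link between them was not tested.

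**Figure D5:**
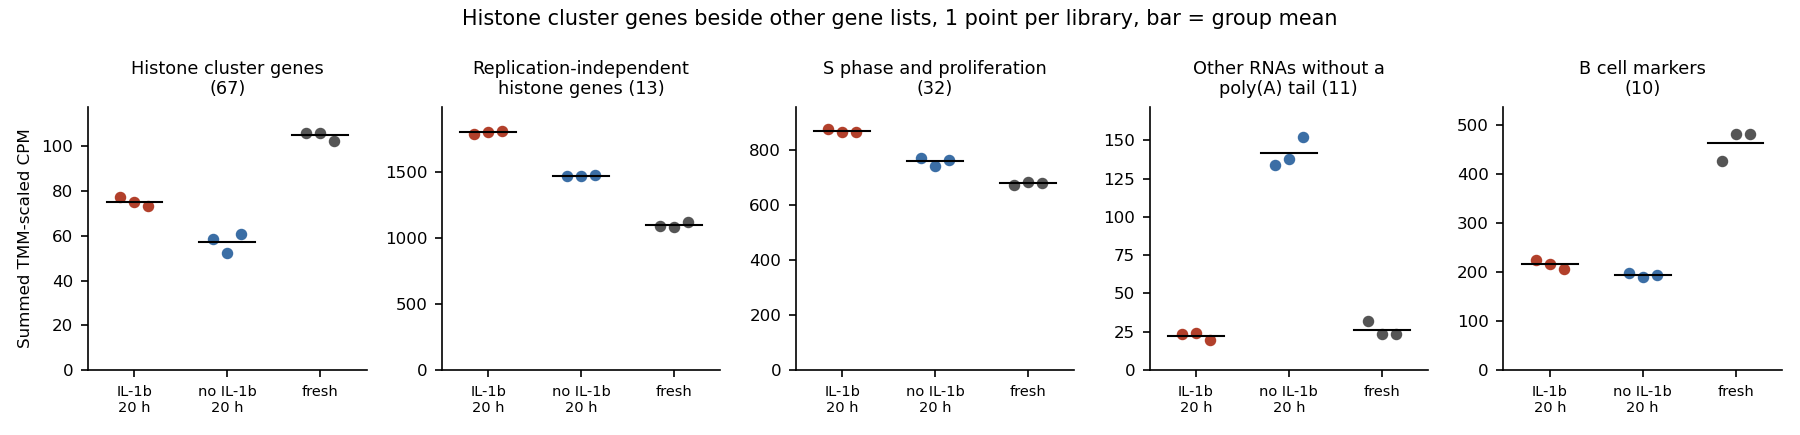
Summed TMM-scaled CPM in each library for the histone cluster genes and for lists of replication-independent histone genes, S phase genes, other RNAs without a poly(A) tail and B cell markers. Points are libraries and bars are group means, with 3 libraries a group. The cluster genes and the B cell markers are highest in fresh cells, the replication-independent histone genes are highest with IL-1b, the S phase sum is 868 to 877 CPM with IL-1b, 743 to 771 CPM in cultured cells and 675 to 686 CPM in fresh cells, and the other RNAs without a poly(A) tail are at 134 to 152 CPM in cells cultured without IL-1b and at 19.6 to 31.9 CPM in the other groups.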

How the data were processed

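Per the labels' protocols, total RNA was extracted and libraries were made with a directional kit, and the molecule is given as polyA RNA. Per the submitters' processing notes, STAR and RSEM were used with mm10; no version or strand setting is given in the sources used here. The authors deposited, for each library, RSEM expected counts, TPM and transcript lengths per gene. Effective lengths entered only the GC and length trend.

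Gene IDs were paired with GENCODE M21 symbols (99.38% matched). Expected counts were rounded to whole numbers and tested with edgeR 4.0.16 (quasi-likelihood F test, TMM scaling, filterByExpr with a minimum count of 10, about 0.628 CPM in 3 libraries) on all 9 libraries, modelling group alone, with p-values adjusted by Benjamini-Hochberg over all 13043 genes, at a threshold of 0.05. For sums, members were replaced by 1 summed feature, or by 5, 1 for each type. The script was tested on simulated counts. Alternatives used DESeq2 1.42.0, limma 3.58.1, other scalings and filters, TPM on a log2 scale, a GC and length trend and each library left out. Intervals and floors cover counting error only.

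Named members are the 10 of highest mean TPM and every called member that averages 1 TPM or more in any group; others, H2afx and Scarna2 included, were named after their values were seen. From each gene list, up to 4 genes of smallest adjusted p were eligible. Members, lists and tests were chosen with earlier results of these data known. Of the lists, Zcchc6, Zcchc11, Ars2 and Snord3a were not found under those names; B cell, NK, neutrophil, myeloid, CD8, erythroid and stromal markers were read in the same way. Summed myeloid markers were 55.9 to 64.3 CPM with IL-1b, 41.7 to 43.8 CPM in cultured cells and 43.8 to 50.9 CPM in fresh cells, in the cultures mostly Cst3 (53.02 to 59.5, 38.3 to 41.4 and 20.04 to 23.9 CPM in the same order); of 8 tested myeloid genes, 6 were lower and 1, Cst3, higher in each culture than in fresh cells, with medians of -4.22 (cultured) and -3.69 (IL-1b). CD8 markers were 56.4 to 63.5, 47.7 to 59.6 and 23.0 to 26.4 CPM in the same order. The stromal list, at 380 to 396, 383 to 388 and 276 to 290 CPM, was nearly all Pecam1, which T cells also express.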

Additional observations from a re-analysis of the deposited data

How the results depend on the processing

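The differences in the sum over all members kept their signs and stayed past the threshold in every alternative fit and without each library in turn, at 0.18 to 0.45 (IL-1b against culture), -1.63 to -0.81 (culture against fresh) and -1.45 to -0.43 (IL-1b against fresh). Of the 4 members called higher with IL-1b against culture, 1 remained on both TPM scales (Hist1h2ap) and 1 among members with whole expected counts, and 2 with the replicate block and trend correction together or with an absolute log2 fold change of at least 1. Against fresh cells, the 3 higher calls became 1 on both TPM scales, 1 among members with whole counts and 1 with that fold limit. With no filter on low counts, 23 members were called lower in cultured and 25 in IL-1b-treated against fresh cells, and with whole counts only 7 and 7. Hist2h3c1, at 14.1 and 21.1 counts in 2 cultured libraries and at 0 in the other 7, was called with no filter, so 1 member was then lower with IL-1b against culture and 1 higher in cultured against fresh cells. Leaving out 1 library gave 2 to 5 higher and 0 to 1 lower with IL-1b against culture and 0 to 2 higher in cultured against fresh cells.

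For H2B, IL-1b against culture passed with no filter (0.31) and with a filter of 1 CPM in 3 libraries (0.31), and ran from 0.20 to 0.42 with 1 library left out. For H3 in that comparison the value passed with upper quartile scaling (-1.42), library size alone (-1.51), no filter (-1.40), DESeq2 (-1.41), limma-voom (-1.97), the trend correction (-1.46) and trend and replicate block together (-1.59), and ran from -2.68 to -0.87 with 1 library left out. H3 in cultured against fresh cells ran from -1.41 to -1.05 in the same way. For H2A with IL-1b against fresh cells, both TPM scales reversed the sign (-0.62 and -0.62), and the trend correction, without and with the block, gave 0.20 and 0.20 past the threshold. For H2B in that comparison, library size alone (-0.28) and the TPM scales (-1.66 and -1.72) passed. Hist3h2a with IL-1b against fresh cells reversed on the TPM scales (-0.18 and -0.19). In the text's other values, a sign changed in 53 cases in which neither fit made a call, and the cause was not tested.

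The labels do not say whether replicate numbers pair the libraries. Deviations of same-numbered libraries correlated between -0.022 and 0.019, those of other pairs between -0.051 and 0.033, and 2 of 9 libraries correlated best with their own number. No pairing was seen, but with 3 libraries a group this check cannot exclude it. With the replicate block, H3 with IL-1b against culture passed (-1.53, adjusted p = 0.0399), and the counts of called members stayed at 4 and 0, 0 and 14, and 3 and 13. Scaling also moved the share of called genes that were higher: 54.1% became 26.7% with library size alone, 6.10% on log2(TPM + 1) and 78.4% with the trend correction for IL-1b against culture, 50.4% became 27.9% on log2(TPM + 1) for culture against fresh, and 50.2% became 39.2% with library size alone and 17.7% on log2(TPM + 1) for IL-1b against fresh. Low counts limit most members, since 47 of 67 could not be tested.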
